A study of Mus musculus with 4 samples.

Results

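Chemokines are small secreted proteins that direct the migration of leukocytes, and their receptors are 7-transmembrane proteins that signal through Gi proteins. Inflammatory ligands such as the CCR2 and CXCR2 ligands recruit monocytes and neutrophils to injured tissue, while a few homeostatic ligands position cells under resting conditions. Atypical receptors bind the same ligands without Gi signaling and remove, transport or present them, and many of the ligand genes lie side by side in the genome.

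The genes described here were the chemokine ligands and chemokine receptors in the transcriptome of perivascular adipose tissue (PVAT), the fat around blood vessels. They were chosen by symbol, as the genes whose names begin with Ccl, Cxcl, Cx3cl, Ccr, Cxcr, Cx3cr, Ackr or Ccrl followed by a digit, together with *Pf4*, *Ppbp*, *Darc* and *Cmklr1*. This rule found 42 of the 12661 genes, 27 ligands and 15 receptors. Another 22 symbols of the family, among them *Cxcl11*, *Ccl17*, *Ccl19*, *Ccl20*, *Ccr3* and *Cxcr6*, were not analysed here.

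The tissue was the outer layer that surrounds the femoral artery, mainly PVAT, collected 48 h after a wire 0.38 mm in diameter had been inserted to injure the vessel, or 48 h after a sham operation. All mice were wild type C57BL/6 females, 11 weeks old, and all had been ovariectomized, the sham group as well as the injury group. Sham and injury were represented by 2 libraries each, with 480 ng of total RNA as input. The labels call them replicates and the methods count them as separate samples. Neither says whether a sample was a single animal or a pool, so the p-values measure the spread between these libraries, which may be technical.

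The values are signed, are spread around 0 and behave as a log scale. Its base and its center are not stated, and the center is not the mean of these libraries, since the mean of the 4 was more than 0.1 from 0 in 57.3% of genes. They are given in deposited units, without fold changes, and a value compares libraries for 1 gene and never 1 gene with another. The sequencing depth behind them is unknown. The limma test was used for injury against sham, its p-values were adjusted by Benjamini-Hochberg over all 12661 genes, and a gene is said to have risen or fallen when its adjusted p was under 0.05. The smallest p that exact permutation allows for 1 gene in this design is 0.333, so each call rests on the variance that limma borrows from the other genes. Several members, including *Ccl2*, *Cxcl3*, *Ccr2* and *Cxcr2*, are shown as upregulated in these same libraries by the study itself, so their direction is not independent evidence.

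Replicates of a group stood apart in their cell type markers. Over the 8 neutrophil markers analysed of 10 listed, the mean was 1.13 in injury replicate 1 and 0.12 in injury replicate 2, against -1.25 and -0.79 in the sham libraries. Over the 5 smooth muscle markers it was -1.33 and -0.25 in the injury libraries and 1.71 and 0.998 in the sham libraries. Of these smooth muscle markers *Myh11*, *Acta2*, *Tagln* and *Cnn1* fell, and the median difference of the 5 was -2.18. All 6 adipocyte markers listed were in the table, with a mean between -0.07 and 0.34 in the 4 libraries. Their differences had both signs: *Plin1* fell (-0.74), *Adipoq* was not called at -0.80 and *Lep* was not called at 0.49. Because the values do not give a level of expression, they do not show which cell types were present, and in bulk tissue more cells of a type cannot be told apart from more RNA per cell.

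Of the 42 chemokine and receptor genes, 12 rose and 1 fell after injury. The share called, 30.95%, stands beside 7.43% of all genes, with 3.76% of all genes higher and 3.67% lower. The family was picked with results of these libraries in view, so the share is a description. An unadjusted p under 0.05 from limma was reached by 29.5% of all genes. The ligands that rose were *Cxcl3*, *Ccl5*, *Ccl9*, *Ccl24*, *Ccl6* and *Ccl22*, 6 of 27, and no ligand fell, although *Cx3cl1* had an unadjusted p of 0.0331 from limma in that direction. Of the receptors 6 rose, among them *Ccr1*, *Ccr2*, *Cxcr3*, *Cxcr4* and *Cx3cr1*, and *Ackr3* fell, so 7 of 15 were called. At an adjusted p under 0.1 the count was 26 of 42, or 61.9% of members, beside 18.3% of all genes. The median difference between injury and sham was 1.25 deposited units over the ligands, 2.03 over the 9 signaling chemokine receptors and -0.80 over the 4 Ackr receptors, against 0.01 over all genes.

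**Figure D1:**
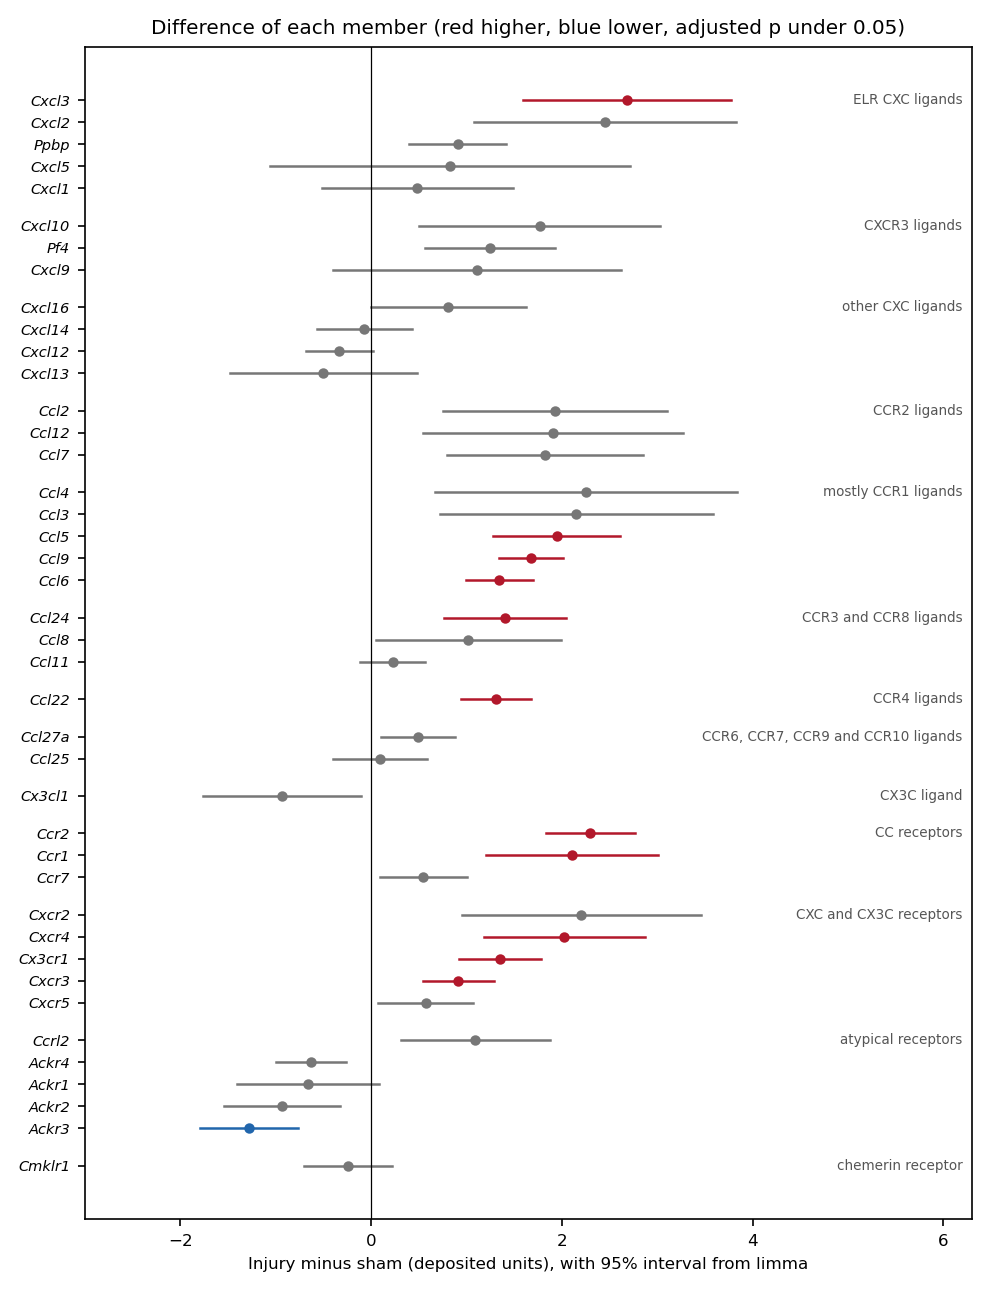
Injury minus sham in deposited units for 41 members, with the 95% interval from limma, in red for members that rose and in blue for the member that fell at an adjusted p under 0.05. The differences run from -1.28 for *Ackr3* to 2.68 for *Cxcl3*, and several of the highest have wide intervals and were not called.

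Both injury libraries lay above both sham libraries in 29 members and below them in 6. Over all genes these shares were 31.6% and 30.3%. The 7 members whose groups overlapped were *Cxcl1*, *Cxcl5*, *Cxcl9*, *Cxcl13*, *Cxcl14*, *Ccl25* and *Cmklr1*. Size alone did not decide a call. Of the 14 members with a difference over 1.7 deposited units, 8 were not called, and these had standard errors between 0.41 and 0.63 and adjusted p-values between 0.0570 and 0.0897 from limma.

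The CXC ligands that carry an ELR motif attract neutrophils through CXCR2. *Cxcl3* (chr5:91215129-91217112 in mm9, plus strand) had the highest difference of all members. Its values were -1.97 and -0.82 in the sham libraries and 1.67 and 0.91 in the injury libraries, with the groups well apart and sham replicate 1 the lowest of the 4. The difference was 2.68 (standard error 0.44, 95% interval 1.59 to 3.78, adjusted p = 0.0330 from limma). *Cxcl2*, a gene of the same cluster, was at -1.84 and -0.53 after sham operation and at 1.86 and 0.68 after injury. Its difference of 2.45 (standard error 0.55) missed the threshold, with an adjusted p of 0.0570 from limma, and the library order was the same as for *Cxcl3*. The annotated transcripts of the pair share 50-base stretches, 6.35% of those of *Cxcl3* and 3.33% of those of *Cxcl2*. Reads were 150 bp long before trimming, and whether any fitted both genes was not tested.

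*Cxcl1* and *Cxcl5*, other ligands of CXCR2, did not separate the groups. *Cxcl1* was at -0.72 and -0.14 in sham and at 0.61 and -0.50 in injury, a difference of 0.49 with a 95% interval from -0.51 to 1.49. *Cxcl5* was at -0.78 and -0.75 in sham, at 1.29 in injury replicate 1 and at -1.17 in injury replicate 2. Its injury libraries thus enclosed both sham libraries, and the gap of 2.45 between them was the highest of all members. *Ppbp*, the precursor of a CXCR2 ligand stored in platelets, was at -0.39 and -0.68 in sham and at 0.17 and 0.58 in injury, a difference of 0.91 (adjusted p = 0.0561 from limma).

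The promoters of these CXC genes are shown because 3 of them hold the same stretch of letters close to the start. RefSeq promoter windows of 300 bases (250 before to 50 after a start; table of GRCm38.p6) were at hand for 31 of the 42 members, and every window matched the mm9 genome exactly, which gave the coordinates below. Both strands were searched for an NF-kB motif, GGGNNNTTCC, and NF-kB is the transcription factor family best known for inflammatory genes. Capitals mark the matches in the 160 bases before each start. *Ccl9*, a called CC ligand with a match, *Ccl6*, its called neighbor without a match, and *Cxcl10*, a ligand of CXCR3, are shown for comparison.
Cxcl1, chr5:91320111-91320270, plus strand: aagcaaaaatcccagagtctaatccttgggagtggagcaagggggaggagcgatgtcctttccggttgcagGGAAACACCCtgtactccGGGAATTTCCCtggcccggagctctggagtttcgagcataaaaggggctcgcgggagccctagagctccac
Cxcl2, chr5:91332765-91332924, plus strand: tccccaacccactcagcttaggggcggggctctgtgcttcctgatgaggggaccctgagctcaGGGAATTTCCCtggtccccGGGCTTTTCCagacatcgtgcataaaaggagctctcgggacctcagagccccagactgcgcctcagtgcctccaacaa
Cxcl3, chr5:91214967-91215126, plus strand: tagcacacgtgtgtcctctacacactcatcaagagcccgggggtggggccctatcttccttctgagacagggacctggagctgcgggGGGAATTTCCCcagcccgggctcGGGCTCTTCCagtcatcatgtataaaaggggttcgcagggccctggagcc
Cxcl10, chr5:92777916-92778075, minus strand: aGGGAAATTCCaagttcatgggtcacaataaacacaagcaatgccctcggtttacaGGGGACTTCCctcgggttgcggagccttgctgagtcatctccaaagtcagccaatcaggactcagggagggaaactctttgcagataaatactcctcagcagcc
Ccl9, chr11:83392139-83392298, minus strand: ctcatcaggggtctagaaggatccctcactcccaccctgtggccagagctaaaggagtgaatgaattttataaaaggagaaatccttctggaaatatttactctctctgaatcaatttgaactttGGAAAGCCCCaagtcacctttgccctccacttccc
Ccl6, chr11:83406590-83406749, minus strand: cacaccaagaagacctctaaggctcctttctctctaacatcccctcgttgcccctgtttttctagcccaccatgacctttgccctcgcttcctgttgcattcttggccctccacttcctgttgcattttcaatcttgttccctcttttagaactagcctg

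The 11-base stretch GGGAATTTCCC, which holds overlapping matches on both strands, began 71 bases before the start of *Cxcl1*, 97 bases before that of *Cxcl2* and 73 bases before that of *Cxcl3*. The genes that share it differed in the libraries, by 0.49, 2.45 and 2.68 deposited units. The motif stood in a window of 5 of 31 members (16.1%), *Cxcl1*, *Cxcl2*, *Cxcl3*, *Cxcl10* and *Ccl9*, against 6.31% of 27025 genes with such windows. All 5 were among the 19 ligands with a window (26.3%) and none among the 12 receptors. Of these 5 genes, *Cxcl3* and *Ccl9* rose. The called ligands *Ccl6* and *Ccl22* had no match in their windows, and *Ccl5* and *Ccl24* had no window. Other motifs searched on both strands were the interferon-stimulated element GAAANNGAAA, in 6.5% of members with a window (*Cxcl10* and *Cxcl14*) and 3.99% of all genes, the AP-1 motif TGANTCA in 16.1% and 8.97%, and the TATA box TATAAA in 38.7% and 15.67%. No matches of different motifs overlapped in the member windows. A match is a string of letters and was not tested as a binding site.

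*Cxcl9* and *Cxcl10* are interferon-induced ligands of CXCR3, the receptor of activated T cells and NK cells. *Cxcl10* was at -1.13 and -0.38 in sham and at 1.72 and 0.30 in injury, apart but with injury replicate 1 higher than injury replicate 2 by 1.42. The difference between groups was 1.77, with a standard error of 0.50 and an adjusted p of 0.0897 from limma. *Cxcl9* was at -0.31 in sham replicate 1 and at 2.05 in injury replicate 1, while injury replicate 2 at 0.23 lay below sham replicate 2 at 0.38. *Pf4*, platelet factor 4, which was listed with this group, was at -0.85 and -1.36 in sham and at 0.44 and -0.15 in injury, a difference of 1.25 (adjusted p = 0.0544 from limma). Beside *Pf4* and *Ppbp*, the 7 platelet and megakaryocyte markers had a median difference of -0.18, and none of them had an unadjusted or adjusted p under 0.05 from limma. The means of these markers ran from -0.32 to 0.14 in the sham libraries and from -0.40 to -0.12 in the injury libraries.

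Among the other CXC ligands, which include the homeostatic ones, no gene passed the threshold in limma and none of the 4 had an unadjusted p under 0.05. *Cxcl12*, the stromal ligand of CXCR4, was at 0.29 and 0.18 in sham and at -0.03 and -0.16 in injury. These groups were apart, and the difference of -0.33 had a 95% interval from -0.68 to 0.02. *Cxcl16*, a membrane-bound ligand of CXCR6, was at -0.84 and -0.77 in sham and at 0.49 and -0.49 in injury, a difference of 0.81 (adjusted p = 0.170 from limma). *Cxcl13*, which guides B cells into follicles, and *Cxcl14* overlapped between groups, with differences of -0.50 and -0.068.

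The CC ligands of CCR2, the receptor that brings inflammatory monocytes into tissue, had like values and were not called. *Ccl2* (chr11:81849073-81850955) was at -1.40 and -0.96 in sham and at 1.46 and 0.03 in injury. *Ccl7* was at -1.05 and -1.01 in sham and at 1.44 and 0.15 in injury. *Ccl12* was at -1.49 and -0.73 in sham and at 1.58 and 0.02 in injury. In each of the 3, injury replicate 1 was far above injury replicate 2, which still lay above both sham libraries. The differences were 1.93, 1.82 and 1.91, with standard errors of 0.47, 0.41 and 0.54 and adjusted p-values of 0.0665, 0.0573 and 0.0897 from limma, so 0 of 3 were called although each had an unadjusted p under 0.05.

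A group of CC ligands, most of which bind CCR1, comprised 5 members, of which 3 rose and all 5 had both injury libraries above both sham libraries. The shares over all genes were 3.76% and 31.6%. *Ccl5* (chr11:83339280-83344020, minus strand), a ligand of CCR1 made by T cells, macrophages and platelets, was at -1.66 and -1.17 in sham and at 0.83 and 0.24 in injury. The groups were apart, and limma gave a difference of 1.95 (standard error 0.27, adjusted p = 0.0291). *Ccl9* (chr11:83386421-83392138, minus strand), a rodent ligand of CCR1 made by myeloid cells, was at -1.33 and -1.28 in sham and at 0.34 and 0.40 in injury. With replicates this close, its difference of 1.68 had the lowest standard error of all members, 0.13 (adjusted p = 0.0285 from limma). *Ccl6* (chr11:83401384-83406589, minus strand), a related rodent ligand of CCR1, had the same pattern, with -1.002 and -1.08 in sham, 0.23 and 0.38 in injury and a difference of 1.34 (standard error 0.14, adjusted p = 0.0285 from limma).

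*Ccl3* and *Ccl4*, which encode the macrophage inflammatory proteins 1 alpha and 1 beta, had higher differences than these called neighbors and were not called. *Ccl3* was at -2.01 and -0.61 in sham and at 1.44 and 0.25 in injury. *Ccl4* was at -1.86 and -0.60 in sham and at 1.83 and 0.23 in injury. In both genes the groups were apart and each group was spread over more than 1 deposited unit. The differences were 2.15 (standard error 0.57, adjusted p = 0.0786 from limma) and 2.26 (standard error 0.63, adjusted p = 0.0871 from limma).

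*Ccl24*, an eotaxin that attracts eosinophils through CCR3, was at -0.89 and -0.91 in sham and at 0.14 and 0.86 in injury. It was the called ligand with the widest gap in favor of injury replicate 2, and limma gave a difference of 1.40 (standard error 0.26, adjusted p = 0.0403). This call was lost after quantile normalization of the columns (adjusted p = 0.0521 from limma). *Ccl11*, another eotaxin, was at -0.14 and -0.24 in sham and at 0.09 and -0.01 in injury, a difference of 0.23 with a 95% interval from -0.11 to 0.57. *Ccl8*, in mice a ligand of CCR8, was at -0.83 and -1.31 in sham and at 0.50 and -0.60 in injury, a difference of 1.02 (adjusted p = 0.154 from limma). The 3 eosinophil and mast cell markers analysed of 8 symbols listed had a median difference of -0.40, with none under an unadjusted p of 0.05 in limma. Their means were 0.57 and -0.13 in the sham libraries and -0.20 and 0.31 in the injury libraries, and their part in the result of *Ccl24* was not tested.

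*Ccl22* (chr8:97269490-97275599, plus strand), a ligand of CCR4 made by macrophages and dendritic cells, was at -0.78 and -0.87 in sham and at 0.59 and 0.38 in injury, a difference of 1.31 (standard error 0.15, adjusted p = 0.0285 from limma). *Cx3cl1* (chr8:97295909-97306323, plus strand), which encodes the membrane-anchored chemokine fractalkine of endothelial cells, is its neighbor on the chromosome and had a difference of the opposite sign. It was at 1.02 and 0.03 in sham and at -0.35 and -0.46 in injury, a difference of -0.93 (standard error 0.33, adjusted p = 0.137 from limma), with most of the spread between the sham libraries. The remaining ligands, *Ccl27a* of CCR10 and *Ccl25* of CCR9, differed by 0.50 and 0.09 and were not called. *Ccl27a* is uncertain, because 43.32% of the 50-base stretches of its transcripts also occur in *Ccl27b* or in copies of it.

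**Figure D2:**
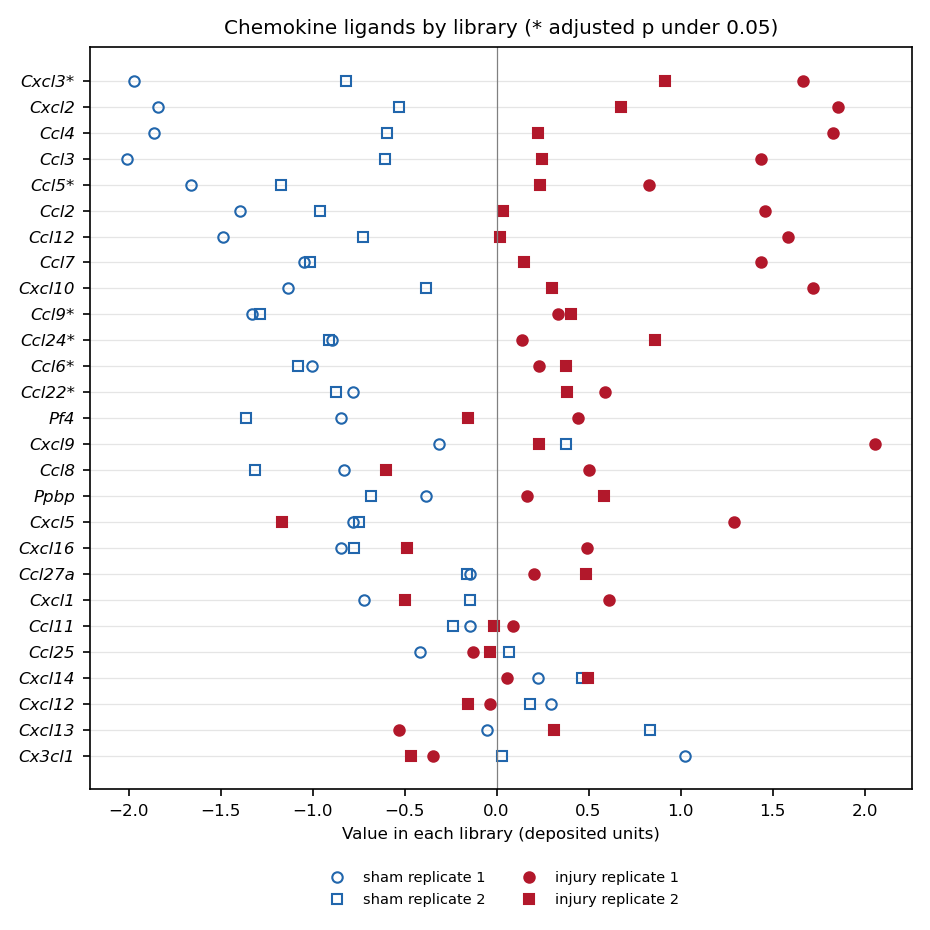
Values of the 27 ligands in deposited units in each of the 4 libraries, sham in open blue and injury in filled red symbols, ordered by the difference. *Cxcl3*, *Cxcl2*, *Ccl4* and *Ccl3* have the highest differences between group means and are widely spread within each group, whereas the replicates of *Ccl9*, *Ccl6* and *Ccl22* nearly coincide.

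All 9 signaling chemokine receptors had both injury libraries above both sham libraries, and 6 of them rose. The shares over all genes were 31.6% and 3.76%. *Ccr2* (chr9:124016689-124028296, plus strand), the receptor of *Ccl2*, *Ccl7* and *Ccl12* on inflammatory monocytes, was at -1.60 and -1.40 in sham and at 1.002 and 0.60 in injury. The gap of 2.00 between the nearest sham and injury libraries was the widest of all members, and the difference was 2.30 (standard error 0.19, 95% interval 1.83 to 2.77, adjusted p = 0.0285 from limma). Of the 50-base stretches of its transcripts, 1.75% also occur in other genes. *Ccr1* (chr9:123876959-123883525, minus strand), which binds many inflammatory CC ligands, was at -1.81 and -1.06 in sham and at 1.08 and 0.27 in injury, a difference of 2.11 (standard error 0.36, adjusted p = 0.0356 from limma).

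*Cxcr2* (chr1:74200563-74207812, plus strand), the neutrophil receptor of the ELR ligands, was at -1.13 and -0.99 in sham and at 1.94 and 0.35 in injury. The sham libraries were close and the injury libraries 1.59 apart, so a difference of 2.20 (standard error 0.50) had an adjusted p of 0.0583 from limma. Injury replicate 1 likewise exceeded the other injury library in all 8 neutrophil markers, with a median gap of 1.21. Of these markers 2 rose, *Retnlg* and *Mmp8*, and their part in the values of *Cxcr2* and its ligands was not tested.

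*Cxcr4*, the receptor of *Cxcl12* on many leukocytes and progenitors, was at -1.68 and -1.17 in sham and at 1.05 and 0.16 in injury, a difference of 2.03 (standard error 0.34, adjusted p = 0.0339 from limma). *Cx3cr1*, the fractalkine receptor of monocytes and macrophages, was at -1.05 and -1.27 in sham and at 0.04 and 0.34 in injury, a difference of 1.35 (standard error 0.17, adjusted p = 0.0285 from limma). It was the called receptor that was higher in injury replicate 2. *Cxcr3* was at -0.61 and -0.47 in sham and at 0.46 and 0.29 in injury, a difference of 0.92 (standard error 0.15, adjusted p = 0.0327 from limma), the smallest among called members.

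*Ccr7* and *Cxcr5* are receptors of lymphoid trafficking. *Ccr7*, which brings dendritic cells and naive T cells to lymph nodes, was at -0.38 and -0.61 in sham and at 0.23 and -0.11 in injury, a difference of 0.55 (adjusted p = 0.120 from limma). *Cxcr5*, the receptor of *Cxcl13* on B cells, was at -0.15 and -0.27 in sham and at 0.12 and 0.60 in injury, a difference of 0.57 (adjusted p = 0.132 from limma). Neither was called, although their groups were apart and both 95% intervals lay above 0, from 0.10 to 1.01 and from 0.08 to 1.07.

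Some markers of leukocytes rose beside these receptors, where 3.76% of all genes rose. Of the 13 monocyte and macrophage markers, 5 rose (*Csf1r*, *Fcgr1*, *C1qa*, *C1qb* and *Lyz2*) and none fell, with a median difference of 1.24 beside 0.01 over all genes. In the same list *Lyve1*, a marker of resident macrophages and lymphatic vessels, had a difference of -1.50 (adjusted p = 0.0610 from limma) and *Ly6c1* of -0.22, both with the injury libraries below the sham libraries. The mean of the list was -0.89 and -0.78 in the sham libraries and 0.40 and -0.12 in the injury libraries. Of the 6 T and NK cell markers analysed of 10 listed, 1 rose, *Klrb1c*, and the median difference was 0.61, with means of -0.27 and -0.34 in sham and 0.52 and 0.03 in injury. Of the 6 dendritic cell markers analysed of 7 listed, none was called by limma and the median difference was 0.06. An unadjusted p under 0.05, reached by 29.5% of all genes, was found for *Flt3* (0.80), *Cd209a* (0.97) and *Zbtb46* (-0.63), which differ in sign. The means of this list were -0.01 and -0.26 in sham and -0.09 and 0.16 in injury. The 2 B cell markers analysed of 5 listed had means of 0.09 and -0.60 in sham and -0.04 and 0.23 in injury. The part of these cell types in the receptor results was not tested.

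The 4 Ackr receptors had both injury libraries below both sham libraries, the opposite of the signaling receptors. This order was found in 30.3% of all genes, and 1 of the 4 was called. *Ackr3* (chr1:92100555-92113326, plus strand, annotated as *Cxcr7*), which takes up *Cxcl12* without Gi signaling, was at 0.47 and 0.98 in sham and at -0.47 and -0.63 in injury. It was the member that fell, with a difference of -1.28 (standard error 0.21, 95% interval -1.80 to -0.76, adjusted p = 0.0328 from limma). *Ackr2*, a scavenger of inflammatory CC chemokines on lymphatic endothelium, was at 0.43 and 0.18 in sham and at -0.94 and -0.31 in injury, a difference of -0.93 (adjusted p = 0.0747 from limma). *Ackr4*, which binds the homeostatic ligands of CCR7 and CCR9, was at 0.59 and 0.38 in sham and at -0.19 and -0.10 in injury, a difference of -0.63 (adjusted p = 0.0622 from limma). *Ackr1*, the Duffy antigen of venules and red cells, was at -0.33 and 0.51 in sham and at -0.43 and -0.71 in injury, and its groups were only 0.10 apart.

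Some endothelial, fibroblast and smooth muscle markers fell as well, beside 3.67% of all genes that fell. All 8 endothelial markers had differences below 0, with a median of -0.71, and *Pecam1* and *Vwf* fell. Their means were 0.60 and 0.75 in sham and -0.20 and -0.14 in injury. The 7 fibroblast markers had a median difference of -0.78, with 4 that fell and none that rose, while *Pdgfra* differed by 0.41 with the injury libraries above the sham libraries. The fibroblast list had means of 0.30 and -0.12 in sham and -0.79 and -0.37 in injury. The part of these cell types, smooth muscle with 4 of 5 markers called lower included, in the lower values of the Ackr receptors and *Cx3cl1* was not tested. The 4 skeletal muscle markers analysed of 6 listed had means of 0.89 and -0.04 in sham and -0.32 and -0.43 in injury, with a median difference of -0.75 and none called by limma (2 at an unadjusted p under 0.05). The epithelial marker *Cdh1*, the only one analysed of 5 listed, was at 2.23 and 0.26 in sham and at 0.24 and -0.83 in injury and was not called. As in *Cx3cl1*, sham replicate 1 was the highest library in both, and their part in its values was not tested.

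*Ccrl2*, which binds chemerin and does not signal, was the atypical receptor whose difference had the sign of the signaling ones. It was at -0.38 and -0.51 in sham and at 1.11 and 0.19 in injury, a difference of 1.09 (adjusted p = 0.0898 from limma). *Cmklr1*, the signaling receptor of chemerin, was at 0.51 and 0.17 in sham and at 0.24 and -0.03 in injury, with overlapping groups and a difference of -0.24 (95% interval -0.70 to 0.22). *Rarres2*, which encodes chemerin, differed by -0.22 (adjusted p = 0.480 from limma).

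**Figure D3:**
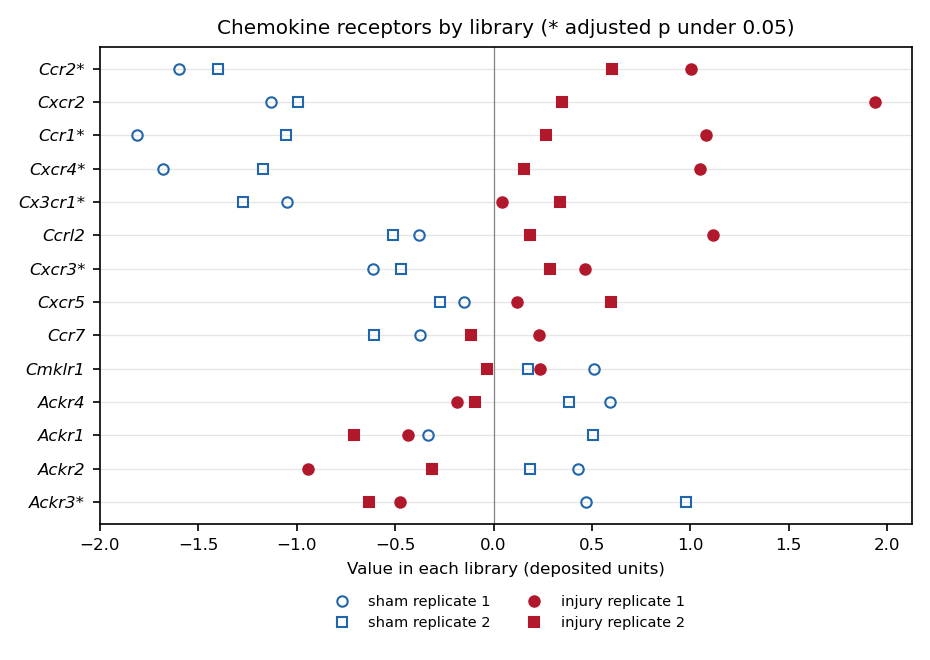
Values of 14 receptors in deposited units in each of the 4 libraries, sham in open blue and injury in filled red symbols, ordered by the difference. The 8 signaling chemokine receptors shown and *Ccrl2* have both injury libraries to the right of both sham libraries, and the 4 Ackr receptors have them to the left.

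The differences of receptors and of their ligands are set side by side here, and the ligands below 0 were not called. *Ccr2* rose by 2.30, and its 3 ligands differed by 1.82 to 1.93. *Ccr1* rose by 2.11, and the 5 ligands listed with it differed by 1.34 to 2.26. For CXCR2 the receptor differed by 2.20 and the ligands by 0.49 to 2.68. *Cxcr4* rose by 2.03 and *Ackr3* fell, with a difference of -1.28, while their common ligand *Cxcl12* differed by -0.33. *Cx3cr1* rose by 1.35 and *Cx3cl1* differed by -0.93, or by -0.44 without sham replicate 1. *Cxcr5* and *Cxcl13*, neither called, differed by 0.57 and -0.50, and *Cxcl13* by -0.061 without sham replicate 2. These are differences of each gene against its own sham level and were not compared between genes by a test.

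The ligand genes cluster in the genome, and the plot of differences along these clusters shows that members of a cluster could have unlike values. Of the 42 members, 40 had a single gene entry in the mm9 annotation (not *Ccl25* and *Ackr4*), 3 of them under older symbols. On chromosome 5, *Cxcl5*, *Ppbp*, *Pf4*, *Cxcl3*, *Cxcl1* and *Cxcl2* lay within 146.6 kb (chr5:91188325-91334935), differed by 0.49 to 2.68, and only *Cxcl3* was called. On chromosome 11, *Ccl2*, *Ccl7*, *Ccl11*, *Ccl12* and *Ccl8* lay within 81.2 kb (chr11:81849073-81930301). In this block *Ccl11* differed by 0.23, while *Ccl7* on one side of it and *Ccl12* on the other differed by 1.82 and 1.91. A further block of 138.9 kb on this chromosome (chr11:83339280-83478185) held *Ccl5*, *Ccl9*, *Ccl6*, *Ccl3* and *Ccl4*, all with differences of at least 1.34.

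**Figure D4:**
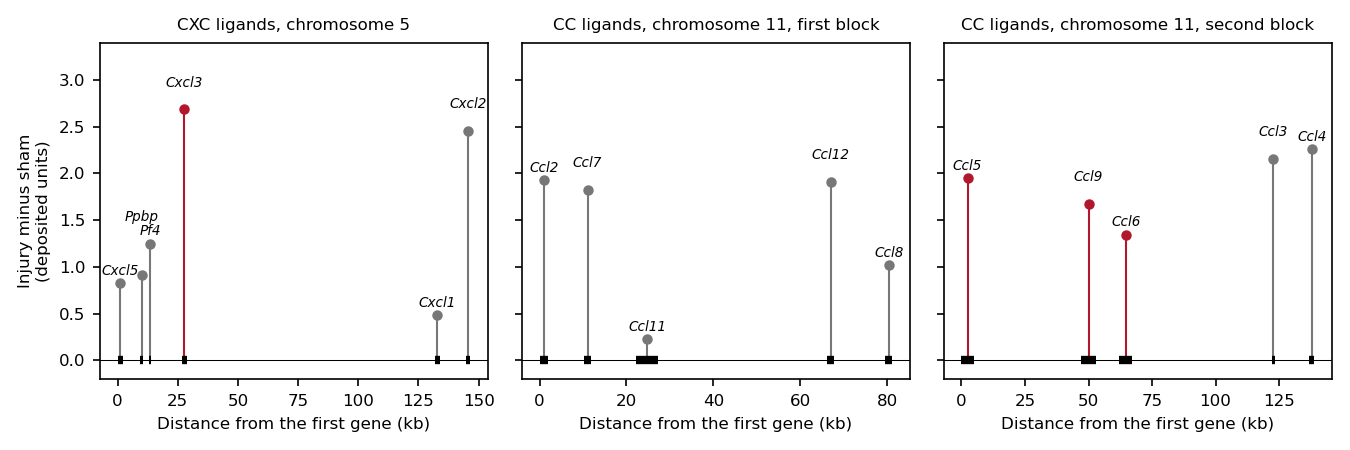
Injury minus sham in deposited units against the distance in kb from the first gene, for 3 genomic blocks of ligands, with black bars for the gene bodies and red for members that rose at an adjusted p under 0.05. *Ccl11*, at 0.23, stands between *Ccl7* at 1.82 and *Ccl12* at 1.91.

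The injury libraries differed from each other in many ligands. Injury replicate 1 was above injury replicate 2 in 30 of 42 members, and by more than 1 deposited unit in 13, which were 11 ligands and 2 receptors. Over all genes, 48.92% were higher in injury replicate 1 and 2.393% had a gap over 1 in either direction. Of these 13 members, 1 was called. In 12 of the 29 members with the injury group wholly above sham, the gap between the injury libraries exceeded the gap between the groups. The reverse order, with injury replicate 2 higher, was found in 12 members, among them the called *Ccl9*, *Ccl6*, *Ccl24* and *Cx3cr1*. The sham libraries also differed, and sham replicate 1 was more than 0.5 below sham replicate 2 in 13 members, by up to 1.40 in *Ccl3*.

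**Figure D5:**
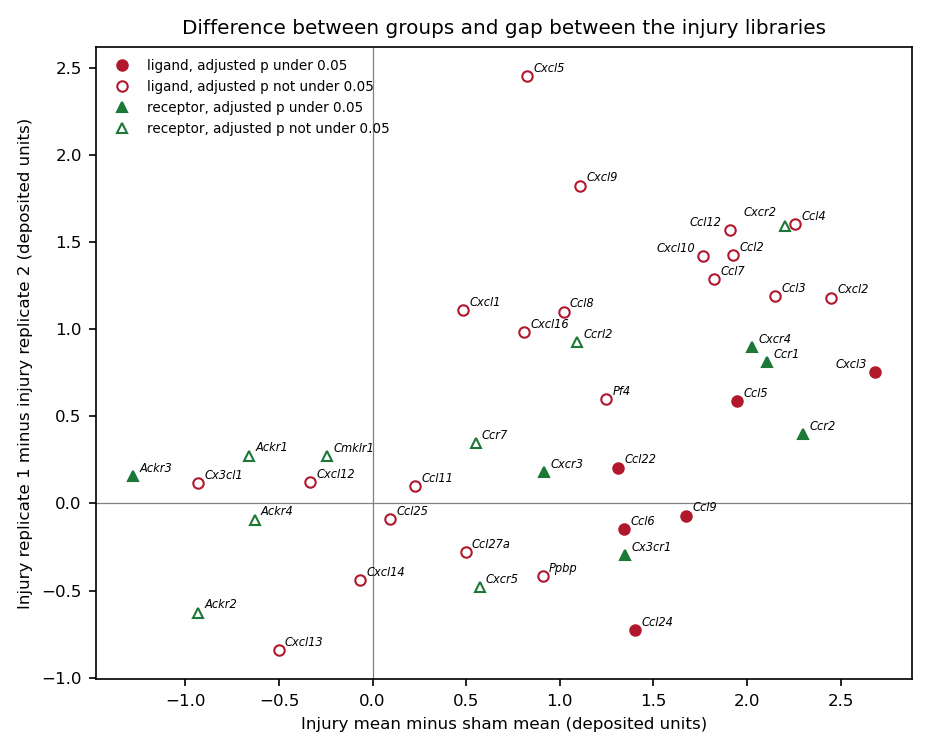
Difference between groups on the horizontal axis and injury replicate 1 minus injury replicate 2 on the vertical axis, both in deposited units, for 41 members, with filled symbols for members at an adjusted p under 0.05. The called members shown lie at gaps under 1 deposited unit, and *Cxcl5* and *Cxcl9* have the widest gaps, 2.45 and 1.82.

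The number of calls depended on single libraries. When 1 library was left out, its group was a lone library assumed to vary like the others. Without sham replicate 1, and also without sham replicate 2, limma called 0 of 42 members, although 12 and 16 ligands and 11 and 10 receptors had an unadjusted p under 0.05. This loss covered the whole table, with 0 and 1 of all 12661 genes called and 1960 and 2553 at an unadjusted p under 0.05. Without injury replicate 1 it called 10 members and 284 of all genes, with *Cxcl3*, *Ccr1*, *Cxcr4*, *Cxcr3* and *Ackr3* lost and *Ccl7* and *Cxcr2* gained. Without injury replicate 2 it called 28 members and 1790 of all genes. The sign of *Cxcl5* and *Cxcl1* turned without injury replicate 1, to -0.40 and -0.069. Leaving out 1 library moved the difference by over 1.5 times in 20 of the 29 members that were not called and in 0 of the 13 called. The gap between libraries of a group sets both this move and the standard error behind a call. The contrast is therefore largely built into the calls and is no separate support for them. Among the members not called, *Cxcl9* differed by 0.20 without injury replicate 1 and by 2.02 without injury replicate 2, *Cxcl16* by 0.32 and 1.30, and *Ccl8* by 0.47 and 1.57. *Ackr1* differed by -1.08 without sham replicate 1 and by -0.24 without sham replicate 2.

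Genes that act downstream of the receptors were counted from lists. Of 26 genes of receptor signaling, 8 rose and none fell, beside 7.43% of all genes called in either direction. An unadjusted p under 0.05 was reached by 18 of them, beside 29.5% of all genes, and the median difference was 0.71, beside 0.01 over all genes. Among those that rose were the Gi-coupled PI3K gamma subunits *Pik3r5* (1.58) and *Pik3r6* (0.69), the phospholipase *Plcb2* (1.88), the small GTPase *Rac2* (1.49), its exchange factors *Dock2* (1.53) and *Vav1* (2.27), and the Src family kinase *Fgr* (2.07). None of the 9 G protein subunit genes of the list was called by limma, 4 had an unadjusted p under 0.05, and the differences ran from -0.44 for *Gng11* to 0.75 for *Gng2*.

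Of 13 genes of receptor desensitization, 3 rose and 1 fell, with a median difference of 0.24. Over all genes 7.43% were called and the median was 0.01. The arrestin genes moved in opposite directions. *Arrb2* was at -0.97 and -1.07 in sham and at 0.51 and 0.01 in injury, a difference of 1.27 (adjusted p = 0.0323 from limma). *Arrb1* was at 0.59 and 0.60 in sham and at -0.38 and -0.39 in injury, a difference of -0.98 (adjusted p = 0.0291 from limma). The GRK gene *Adrbk2* (0.80) and *Rgs1* (1.86), a regulator of Gi signaling in leukocytes, also rose.

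Of 11 genes of chemokine presentation and cleavage analysed of 12 listed, *Mmp8* (1.46) and *Mmp12* (2.05), metalloproteases that can cut chemokines, rose, and *Sdc1* (-0.76), a heparan sulfate proteoglycan, fell. The share called over all genes was 7.43%. A list of 11 symbols outside the rule included *Ccbp2*, an older symbol of *Ackr2*. Of the 7 related genes analysed from it, none was called by limma and 5 had an unadjusted p under 0.05, beside 29.5% of all genes. The highest of them were *Cd74* (1.23), *Cmtm7* (0.99) and *Cklf* (0.97).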

How the data were processed

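RNA-seq was done on 4 libraries, 2 sham and 2 injury, grouped by the sample labels. Per the submitters' processing notes, reads were checked with FastQC 0.11.8, trimmed with cutadapt 1.18 and Trimmomatic 0.39, aligned to mm9 with STAR 2.6.0a, counted with featureCounts and handled with DESeq2 1.28.0 in R 3.6.0. The values the authors deposited are not counts but a signed, log-like score per gene and library, from -2.27 to 6.45, with 50.5% below 0 and all library medians within 0.0062 of 0. The step from counts to this score, its base, its center and the filter on genes are not given in the sources used here. Depth is unknown, so no interval or floor based on counts was given.

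The planned main test suited this score: limma 3.58.1 in R 4.3.3 (lmFit and eBayes, no trend, two-sided, group as the only term, all 4 libraries), with Benjamini-Hochberg adjustment over 12661 genes, a threshold of 0.05, 2 residual and 3.48 prior degrees of freedom. No filter was applied. The members and the gene lists were chosen with earlier results of these data known, and a list is described by its counts and median, to be read beside the shares called and the median over all genes. Every gene that fits the symbol rule was named, except 1 member. The values of this member and of 1 gene of the signaling list are not reported here, and both stay in the counts and medians. The test was tested on simulated data for injury against sham (12661 genes, 10 runs of 200 changed genes): it called 70.6% of genes given a change of 2 units and 19.9% of genes given 1 unit, and 2 unchanged genes per run. These rates depend on the number of changed genes, which is unknown in the real data, and need not hold there.

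Positions came from the GENCODE annotation of NCBIM37 (mm9), and promoter sequences from RefSeq. The alternatives were a replicate block, quantile normalization, scaling of the columns to a common spread, a robust prior of the variance, identical genes counted once (28 genes had values identical to another, none of them a member), a threshold of 0.1 and leaving out each library in turn. Python 3.11.15 with numpy 2.4.6, pandas 2.3.3 and matplotlib 3.10.9 served for tables and plots.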

Additional observations from a re-analysis of the deposited data

How the results depend on the processing

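Over the 5 alternatives that kept all 4 libraries and the 0.05 threshold, 10 of the 13 called members kept their call, and *Cxcl2*, *Cxcr2* and *Pf4* were called in some of them. *Ccl24* lost its call after quantile normalization (adjusted p = 0.0521 from limma). With the replicate block, *Ccr1* and *Cxcr3* lost theirs (adjusted p = 0.0510 and 0.0525 from limma) and *Pf4* gained one, with no other call of a member changed, giving 7 ligands, 5 receptors and 684 of all genes. Same-numbered libraries did not deviate together (r = -0.094 across genes), so the numbers were not taken as pairs. At a threshold of 0.1 the counts were 15 ligands, 11 receptors and 2317 of all genes, 1166 higher and 1151 lower. Leaving out 1 library gave 0 to 18 ligands, 0 to 10 receptors and 0 to 1790 of all genes called by limma. With 0 called of all genes, 1960 had an unadjusted p under 0.05. Each such fit had 1 residual degree of freedom. Differences changed sign in 4 members, between lowest and highest values of -0.40 and 2.05 for *Cxcl5*, -0.069 and 1.04 for *Cxcl1*, -0.15 and 0.33 for *Ccl25* and -0.29 and 0.15 for *Cxcl14*, and 0.052 for *Cxcl14* without sham replicate 2. The causes were not tested. Depth, and with it the precision of each value, is unknown.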
